A study of Rattus norvegicus with 9 samples.

Results

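Macrophage and leukocyte marker genes were described across cultures of rat pancreatic stellate cells, the fibroblast-like cells of the pancreas, on 3 growth surfaces. The 33 listed genes mark macrophages and leukocytes in general, and a gene was followed through the array row that carries its symbol alone and has the highest mean. Of the 33 genes, 31 had such a row among the 14506 genes tested, and Itgax and Msr1 had none. Macrophages are phagocytes that take up particles through integrins and scavenger receptors, pass signals through adaptor proteins with short tyrosine motifs, and digest their cargo in lysosomes. Their development depends on the receptor for colony-stimulating factor and on the transcription factor PU.1. In the pancreas they live among acini and islets, next to the stellate cells. Fibroblasts are not known for most of these genes, although some, such as Lgals3, are widely expressed.

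The cells came from male Sprague Dawley rats, were isolated on a Nycodenz density gradient and were grown for 72 hours in medium with 10% fetal bovine serum. The groups were 2 arrays of cells on Matrigel, an extract of basement membrane, 3 arrays on collagen I, the fibrillar collagen of scar tissue, and 4 arrays on uncoated plastic. The sample titles carry a letter whose meaning the labels do not state: A and S on Matrigel, A, P and Z on collagen I, and A, P, S and Z on plastic. The labels do not say whether the arrays came from separate animals or cultures, so each p-value reflects no more than the scatter of these samples, which may be technical. All values are log2 expression values as deposited. RNA was measured from whole dishes, so fewer cells of a type and less RNA per cell cannot be told apart. Of 19 measured stellate cell and fibroblast markers, 15 lay above the dim level. That level is 4.25, the 40th percentile of gene means, under which a gene is called dim here.

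Most of the leukocyte markers were not dim. Of the 31 genes, 26 had a mean at or above the dim level (83.9%, against 60% of all genes tested), and 12 lay at or above the 75th percentile. The brightest were Gpnmb, a glycoprotein of lysosomes and melanosomes, at the 98.5th percentile with a mean of 10.74, and Cd14, the co-receptor for bacterial lipopolysaccharide, at the 98.3rd percentile with a mean of 10.60. Cybb, the catalytic subunit of the phagocyte oxidase, and Cd163, the scavenger receptor for haemoglobin bound to haptoglobin, averaged 9.35 and 9.32 over the 9 arrays. Cd68, a lysosomal membrane protein of macrophages, averaged 8.62. At the other end Ccr2 and Cx3cr1, the chemokine receptors of monocytes, averaged 2.40 and 3.73, and the scavenger receptor gene Marco 3.21. Cd83 and Aif1, a surface protein of activated dendritic cells and an actin-bundling protein, averaged 4.12 and 4.2. Probes differ in response, so these positions rank rows on the array and do not compare amounts of RNA between genes.

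**Figure D1:**
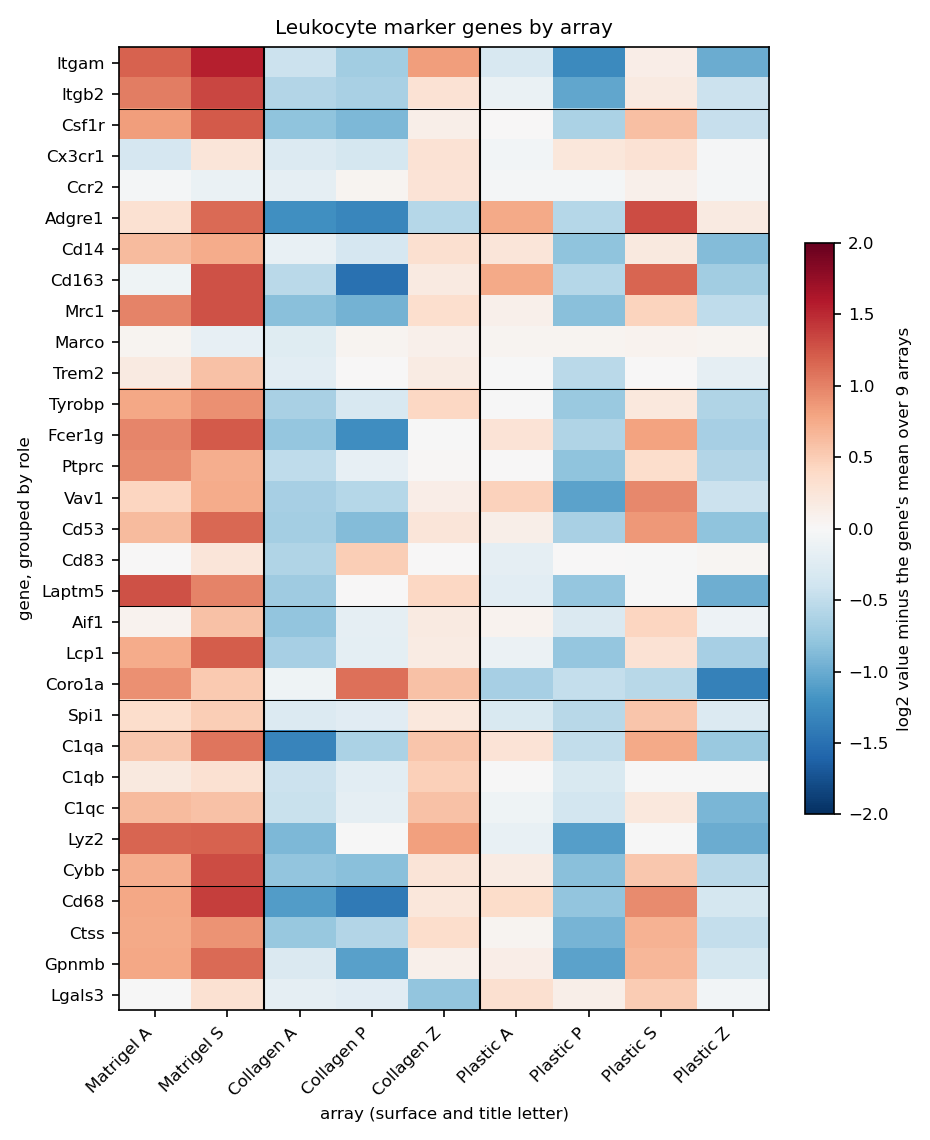
Log2 value of each of the 31 leukocyte marker genes (rows, grouped by role) on each of the 9 arrays (columns, by surface and title letter), minus the mean of that gene over all arrays. The 2 Matrigel arrays have the highest means of the 31 genes, 7.2 and 7.48, and on plastic the arrays of letters A and S are above those of P and Z in 24 of 31 rows.

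Most markers of lymphocytes and granulocytes were dim. Of 27 measured T and NK cell genes 3 lay above the dim level, of 12 B and plasma cell genes 0, of 15 neutrophil genes 1 and of 13 mast cell genes 1. The mean of the T and NK cell list lay between 3.19 and 3.24 on Matrigel, between 3.10 and 3.20 on collagen I and between 3.08 and 3.17 on plastic. The 12 B and plasma cell genes averaged 2.92 to 2.94 on Matrigel, 2.87 to 3.0 on collagen I and 2.85 to 2.98 on plastic. The neutrophil gene above the dim level was Lcn2, the iron-binding lipocalin 2 that epithelial and other cells also make. Its mean of 10.83 exceeded that of every member, and it averaged 11.93 on Matrigel, 10.81 on collagen I and 10.30 on plastic (adjusted p = 0.0704 between Matrigel and plastic). Of 10 dendritic cell genes 5 lay above the dim level. Of the 3 T and NK cell genes above the dim level, Cd4, which rat macrophages also carry, and Il7r were the brightest. Cd4 averaged 7.33 on Matrigel, 5.86 on collagen I and 6.24 on plastic, and Il7r, the interleukin 7 receptor, averaged 6.24, 5.14 and 5.16 in the same order. Neither differed between Matrigel and plastic past the threshold (limma, adjusted p = 0.135 for Cd4 and 0.253 for Il7r).

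**Figure D2:**
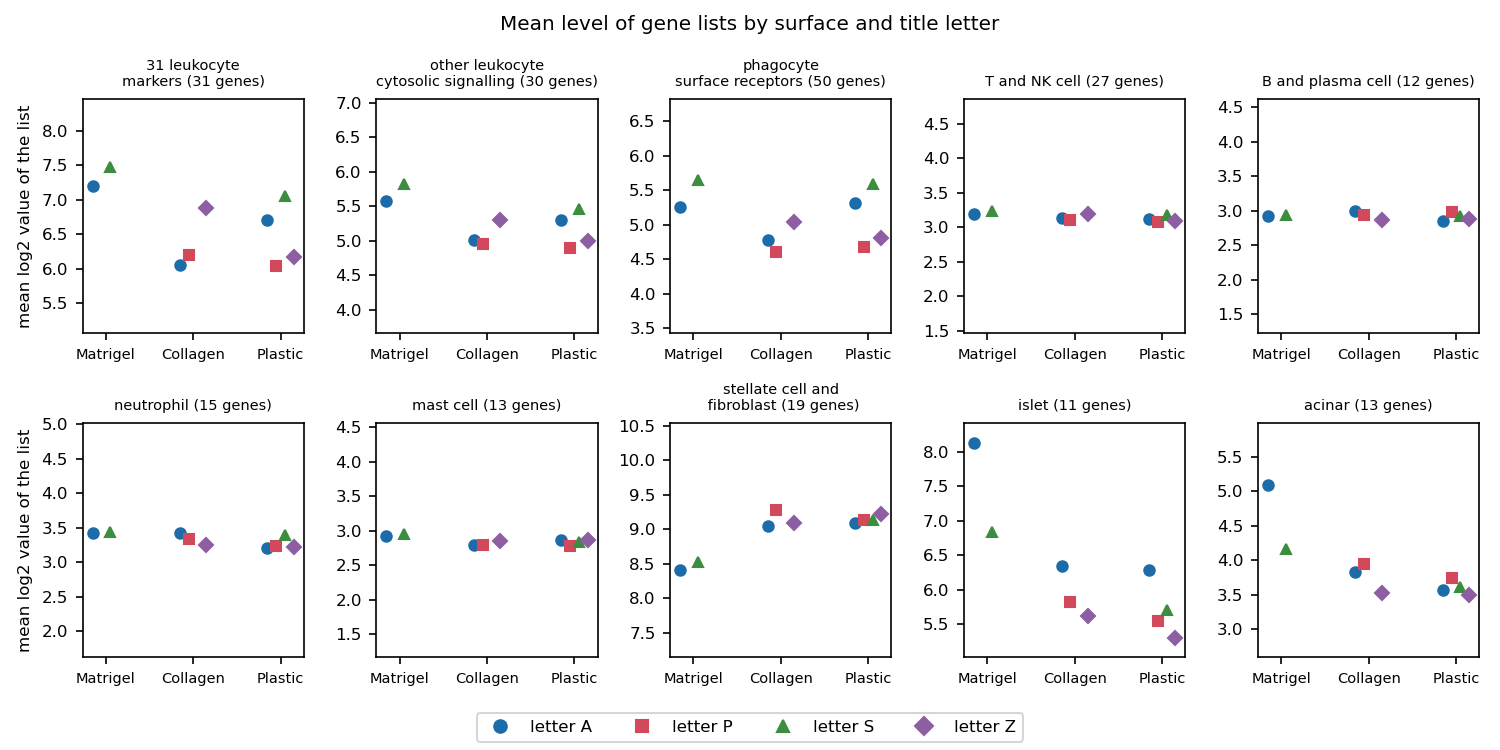
Mean log2 value of 10 gene lists on each array (y axis, each panel spanning the same range of log2 units), by surface (x axis) and title letter (colour and shape). The phagocyte lists vary between letters on the same surface, and the lymphocyte, neutrophil and mast cell lists stay within a narrow band.

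Against plastic, 5 of the 31 genes rose on Matrigel and 0 fell in a limma fit over all 9 arrays with Benjamini-Hochberg adjustment. The 5 are 16.1% of the members, beside 4.52% of all genes higher and 5.85% lower on Matrigel. At an unadjusted p under 0.05, 16 members were higher and 0 lower (51.6%, beside 24.1% of all genes in either direction). The 5 called genes were Itgam and Itgb2, Laptm5, Lcp1 and Coro1a. Values of 18 members on both Matrigel arrays lay above all 4 plastic arrays, beside 13.6% of all genes. The median difference of the 31 genes was 1.00 on the log2 scale, beside -0.01 for all genes. Leaving out 1 array at a time gave 0 to 10 calls, with 1 call without plastic replicate 1 (letter A), 2 without plastic replicate 2 or 4 (letters P and Z), 8 without collagen replicate 3 (letter Z) and 10 without plastic replicate 3 (letter S). None of the 5 passed without Matrigel replicate 1 (letter A) or without Matrigel replicate 2 (letter S), and none passed when the plastic arrays were restricted to letters A and S, which are the letters on Matrigel. With that restriction the mean of the 31 genes was higher on Matrigel by 0.47, against 0.85 with all plastic arrays.

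Both measured integrin genes rose on Matrigel, and Itgam showed the largest difference of the 31 genes. Itgam (Entrez gene 25021), the alpha chain of complement receptor 3 that binds particles coated with complement, had 7.13 and 7.49 on Matrigel, against 5.62, 4.67, 6.07 and 4.95 on plastic. Both Matrigel values lay above the highest plastic value, that of letter S. The Matrigel average was 7.31 ± 0.26 (SD, n = 2), against 5.33 ± 0.64 for the plastic arrays (SD, n = 4), a difference of 1.98 ± 0.48 (SE), or 3.95-fold (limma, adjusted p = 0.0342). Itgb2 (Entrez gene 309684), the beta chain that pairs with it and with the other leukocyte alpha chains, had 8.08 and 8.40 on Matrigel, against 6.93, 6.03, 7.24 and 6.64 on plastic. The groups did not overlap, and the difference was 1.53 ± 0.36 (adjusted p = 0.0291). Within letter A Itgam was 1.51 higher on Matrigel than on plastic and within letter S 1.42 higher, and Itgb2 was 1.15 and 1.16 higher.

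Of 7 adaptor and signalling genes 1 rose on Matrigel. Laptm5 (Entrez gene 89783), a lysosomal membrane protein of blood cells, had 7.52 and 7.25 on Matrigel, against 6.04, 5.48, 6.25 and 5.28 on plastic. The Matrigel arrays were higher than every plastic array, by 1.62 ± 0.34 between the means (adjusted p = 0.0200). Tyrobp and Fcer1g, the adaptors that carry the tyrosine motif for many phagocyte receptors, were 1.13 ± 0.33 and 1.15 ± 0.45 higher without passing (adjusted p = 0.0700 and 0.165). Ptprc, the CD45 phosphatase of all nucleated blood cells, had 6.61 and 6.38 on Matrigel, against 5.67, 4.84, 6.0 and 5.07 on plastic, and missed the threshold (adjusted p = 0.0564). For these 3 genes as well the Matrigel arrays lay above all plastic arrays. Vav1, a signalling protein of blood cells, had 6.21 and 6.53 on Matrigel, against 6.25, 4.71, 6.74 and 5.35 on plastic. Its groups overlapped, and within each of letters A and S the Matrigel array was the lower, by -0.04 and -0.22. The tetraspanin gene Cd53 differed by 1.01 ± 0.48 (adjusted p = 0.247), and Cd83 lay near the dim level on every surface.

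Among the 3 actin-binding genes Lcp1 and Coro1a rose on Matrigel. Lcp1 (Entrez gene 306071), the leukocyte form of the actin-bundling protein plastin, had 7.99 and 8.45 on Matrigel, against 7.12, 6.46, 7.53 and 6.57 on plastic. The difference was 1.30 ± 0.33 (adjusted p = 0.0400), with no overlap of the groups. Coro1a (Entrez gene 155151), coronin 1A of the leukocyte cell cortex, had 6.94 and 6.55 on Matrigel, against 5.35, 5.54, 5.46 and 4.67 on plastic. Every Matrigel value again exceeded every plastic value, by 1.49 ± 0.34 between the means (adjusted p = 0.0259). Aif1 was 4.27 and 4.78 on Matrigel, against 4.27, 3.91, 4.63 and 4.10 on plastic, and was called in neither direction (adjusted p = 0.612).

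**Figure D3:**
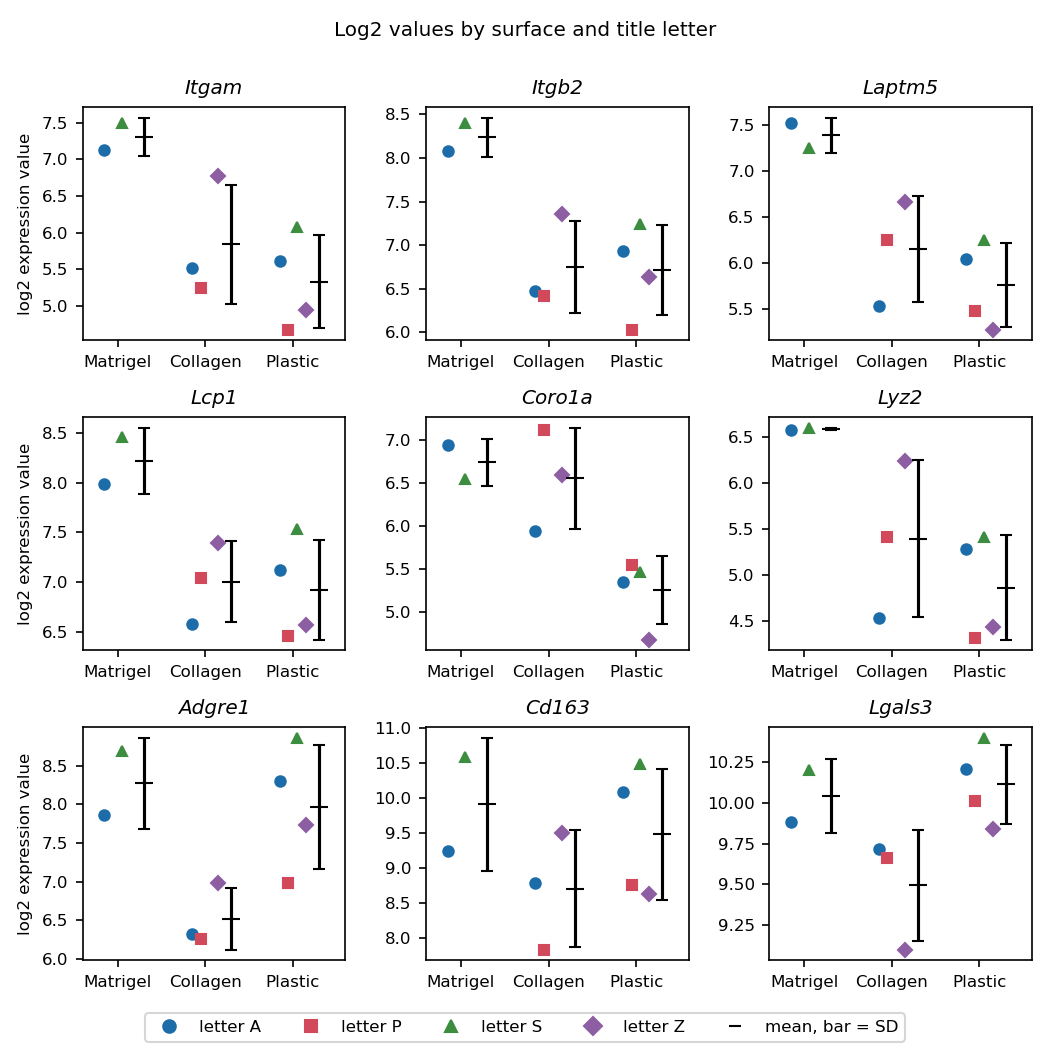
Log2 values of 9 leukocyte marker genes by surface (x axis), with each array marked by its title letter and the mean and SD of each surface beside the points. Itgam, Itgb2, Laptm5, Lcp1, Coro1a and Lyz2 are higher on both Matrigel arrays than on any plastic array, whereas Adgre1, Cd163 and Lgals3 overlap between Matrigel and plastic.

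Of the 5 secreted and oxidase genes 0 passed, and Lyz2 came closest. Lyz2 (Entrez gene 25211), the lysozyme of macrophages, had 6.59 and 6.6 on Matrigel, against 5.28, 4.32, 5.42 and 4.43 on plastic. The groups did not overlap. The difference between the means was 1.73 ± 0.47, and the adjusted p was 0.05002, just above the threshold of 0.05. Lyz2 passed under some alternatives, such as the title letter as a random block (adjusted p = 0.0447). It missed with the letter as a fixed block and with plastic arrays of matching letters (adjusted p = 0.128 and 0.236). Cybb had 10.08 and 10.66 on Matrigel, against 9.51, 8.52, 9.89 and 8.80 on plastic (adjusted p = 0.133). The 3 chains of complement C1q, which opsonizes debris and is made by macrophages, differed by 0.85 ± 0.55 for C1qa, 0.33 ± 0.22 for C1qb and 0.90 ± 0.34 for C1qc (adjusted p = 0.408, 0.424 and 0.144).

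Of the 9 measured receptor genes for growth factor, chemokines, adhesion, scavenging and pattern recognition, 0 passed between Matrigel and plastic. Csf1r, the receptor for the macrophage growth factors CSF1 and interleukin 34, had 8.47 and 8.86 on Matrigel, against 7.64, 6.99, 8.23 and 7.17 on plastic. Mrc1, the mannose receptor, had 9.46 and 9.75 on Matrigel, against 8.57, 7.64, 8.91 and 7.97 on plastic. Both genes, like Cd14, were higher on the Matrigel arrays than on all plastic arrays, with differences of 1.16 ± 0.38, 1.33 ± 0.43 and 1.00 ± 0.35 (adjusted p = 0.0994, 0.0916 and 0.116). Trem2, a lipid-sensing receptor of macrophages, was dim on plastic and at least 0.40 higher on Matrigel (adjusted p = 0.0994). Adgre1 (Entrez gene 316137), the F4/80 adhesion receptor of resident macrophages in mice, had 7.86 and 8.69 on Matrigel, against 8.31, 6.99, 8.86 and 7.73 on plastic. Cd163 (Entrez gene 312701) had 9.23 and 10.58 on Matrigel, against 10.08, 8.75, 10.48 and 8.62 on plastic. For these receptors the surfaces overlapped, with differences of 0.30 ± 0.48 and 0.43 ± 0.66 (adjusted p = 0.780 and 0.775). The 95% intervals of those differences reached 1.09 to either side for Adgre1 and 1.5 for Cd163, wide enough to hold a change of 2-fold.

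Spi1, which encodes PU.1, had 5.58 and 5.72 on Matrigel, against 4.93, 4.68, 5.79 and 4.97 on plastic, with overlap at letter S (adjusted p = 0.267). Among the 4 lysosomal and lectin genes, the cathepsin gene Ctss had 7.15 and 7.29 on Matrigel, against 6.45, 5.46, 7.08 and 5.91 on plastic. Gpnmb had 11.52 and 11.87 on Matrigel, against 10.87, 9.67, 11.41 and 10.39 on plastic. The Matrigel arrays were above all plastic arrays for both genes, and neither passed (adjusted p = 0.213 and 0.187). Cd68 had 9.39 and 10.01 on Matrigel, against 8.99, 7.83, 9.56 and 8.27 on plastic (adjusted p = 0.307). Lgals3, which encodes the galactose-binding lectin galectin 3, had 9.88 and 10.20 on Matrigel, against 10.21, 10.01, 10.40 and 9.84 on plastic (adjusted p = 0.890). It was the bright gene with the smallest difference in this comparison, at -0.07 ± 0.21.

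**Figure D4:**
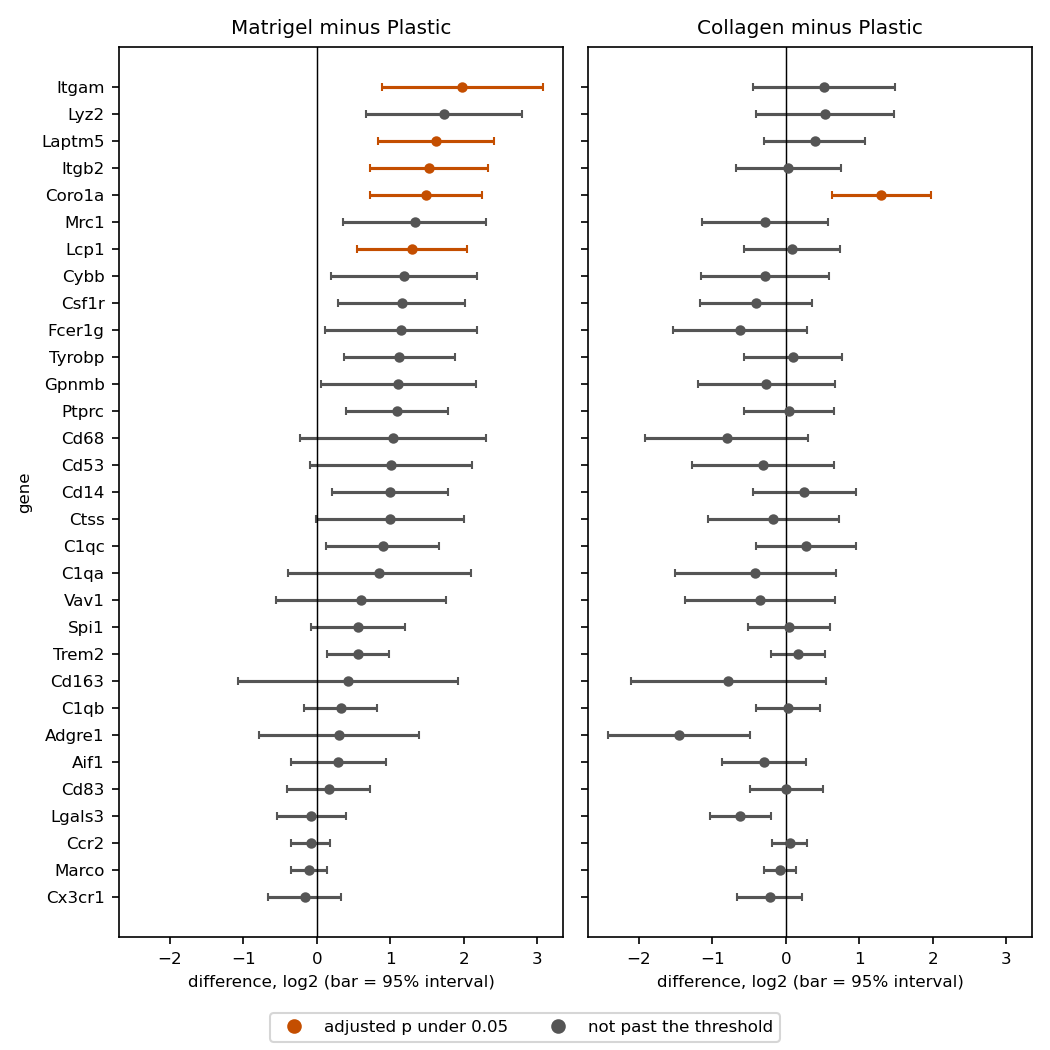
Difference in log2 value between Matrigel and plastic (left) and between collagen I and plastic (right) for each of the 31 genes, with 95% intervals from the limma fit. The 5 genes past the threshold on Matrigel lie between 1.30 and 1.98, and on collagen I Coro1a lies at 1.30.

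PU.1 binds DNA at sites built around the letters GAGGAA, and 5 promoters are shown as examples with and without these letters. Promoter sequences came from RefSeq (assembly GRCr8) for 23 of the 31 genes and were read over the 250 bases before the annotated start. On either strand, 17 of the 23 windows held GAGGAA (73.9%), beside 23.3% of 11927 other genes tested and 23.2% of all 27457 windows. The longer GAGGAAGT, which contains it, stood in 3 of the 23 windows (13%), beside 2.19% of the other genes tested. The 3 were those of Cd53, Ctss and Vav1. A match is a description of letters and not a measured site. Below, capitals mark GAGGAA, or GAGGAAGT where the longer match is present, in either orientation. Itgam and Laptm5 rose on Matrigel, Ctss and Vav1 carry the longer match, and Coro1a, which rose on both matrices, holds neither in its window.
Itgam, chr1:192089342-192089591, plus strand: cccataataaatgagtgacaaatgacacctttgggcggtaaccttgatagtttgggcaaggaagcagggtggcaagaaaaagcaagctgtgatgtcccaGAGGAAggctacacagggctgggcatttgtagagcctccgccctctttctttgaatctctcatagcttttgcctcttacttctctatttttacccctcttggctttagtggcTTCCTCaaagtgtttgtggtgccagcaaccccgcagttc
Laptm5, chr5:148371630-148371879, plus strand: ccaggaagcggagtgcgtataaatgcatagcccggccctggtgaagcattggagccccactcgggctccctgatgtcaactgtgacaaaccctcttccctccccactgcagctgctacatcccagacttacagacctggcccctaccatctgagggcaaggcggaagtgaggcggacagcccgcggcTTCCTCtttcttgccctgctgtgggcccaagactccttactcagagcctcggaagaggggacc
Ctss, chr2:185775146-185775395, plus strand: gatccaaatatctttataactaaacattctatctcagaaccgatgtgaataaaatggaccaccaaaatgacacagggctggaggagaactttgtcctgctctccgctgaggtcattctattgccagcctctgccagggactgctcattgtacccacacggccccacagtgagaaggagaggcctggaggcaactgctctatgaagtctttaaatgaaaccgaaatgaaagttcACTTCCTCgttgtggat
Vav1, chr9:2248705-2248954, plus strand: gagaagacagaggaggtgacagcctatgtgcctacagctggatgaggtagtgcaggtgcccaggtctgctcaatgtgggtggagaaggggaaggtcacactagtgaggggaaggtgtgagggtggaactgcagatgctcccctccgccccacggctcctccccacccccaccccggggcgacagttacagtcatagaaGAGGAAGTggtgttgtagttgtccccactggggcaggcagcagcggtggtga
Coro1a, chr1:190731104-190731353, minus strand: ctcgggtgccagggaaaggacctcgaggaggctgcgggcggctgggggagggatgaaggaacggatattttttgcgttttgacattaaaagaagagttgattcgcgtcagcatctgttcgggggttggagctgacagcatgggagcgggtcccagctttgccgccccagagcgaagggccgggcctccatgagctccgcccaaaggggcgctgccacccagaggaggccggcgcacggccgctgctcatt

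Arrays of the same surface differed widely in these genes. The mean of the 31 genes was 7.2 and 7.48 on Matrigel for letters A and S, 6.06, 6.19 and 6.87 on collagen I for letters A, P and Z, and 6.70, 6.04, 7.05 and 6.16 on plastic for letters A, P, S and Z. On plastic the arrays of letters A and S were the high ones, and on collagen I that of letter Z. The median SD of a member among plastic arrays was 0.53, beside 0.12 for all genes, and on collagen I it was 0.54 beside 0.11. The values for all genes include the dim ones and were not matched to the members in brightness. The plastic array of letter S stood above its surface mean in 31 of 31 genes and the collagen array of letter Z in 30 of 31, beside 47.5% and 47.3% of all genes. Conversely, the plastic arrays of letters P and Z were above the plastic mean in 3 and 2 of 31, beside 49.2% and 54.3% of all genes. In 24 of 31 genes both plastic arrays of letters A and S exceeded both of P and Z, a split chosen after the values were seen, beside 16.4% of all genes. Most members varied together among arrays of a surface. The deviations from the surface means correlated with those of the other members at r over 0.8 for 24 of 31 genes, over 9 arrays that share these surface means, and at r under 0.4 for Marco, Cd83, Coro1a and Lgals3.

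Arrays of the same letter were also compared one with one, without a test. Between Matrigel and plastic 23 of 31 genes were higher on Matrigel within letter A and 24 of 31 within letter S, beside 46.7% and 43.7% of all genes. Of the 31 genes 22 were higher within both, a pattern that was not counted over all genes. The median differences of the 31 genes were 0.57 and 0.38 within letters A and S. Coro1a was 1.59 and 1.09 higher, Laptm5 1.48 and 1.00, and Lyz2 1.30 and 1.18. The genes lower on Matrigel within both letters were Adgre1, by -0.45 and -0.17, Lgals3, by -0.32 and -0.20, Cx3cr1, which is dim, and Vav1. Cd163 was -0.84 within letter A and 0.10 within letter S. Itgam, Coro1a and Lyz2 thus lay above the median of the 31 genes within both letters, and Adgre1 below it.

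**Figure D5:**
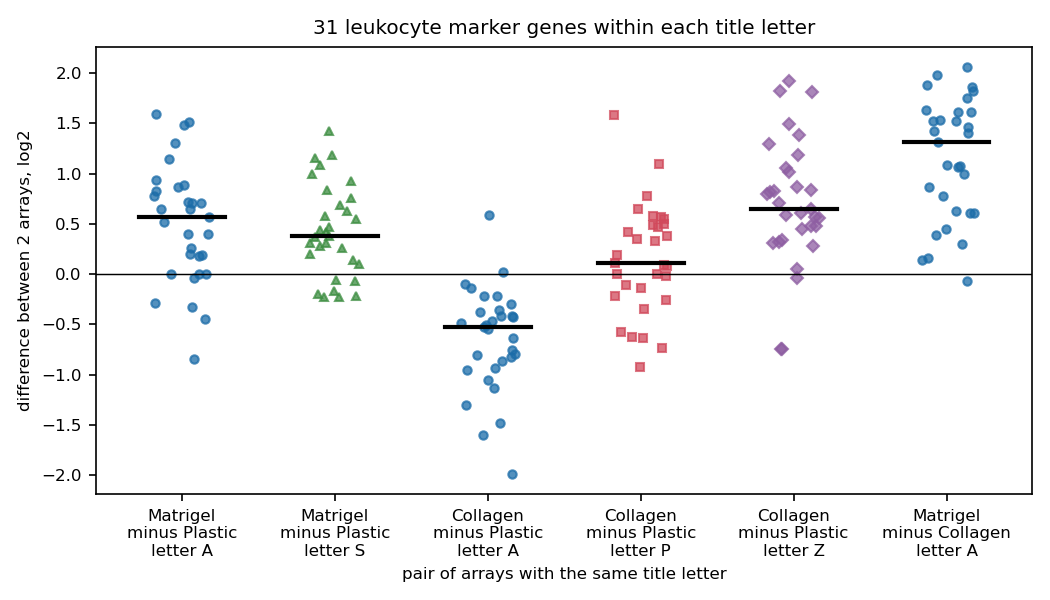
Difference in log2 value between 2 arrays of the same title letter for each of the 31 genes (points), with the median as a black line, for the 6 pairs of arrays that share a letter. Between collagen I and plastic the median is -0.52 for letter A, 0.11 for P and 0.65 for Z.

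Against plastic, 1 of the 31 genes rose on collagen I and 0 fell in the same fit (3.23%, beside 2.95% of all genes higher and 3.17% lower). At an unadjusted p under 0.05, 1 was higher and 2 were lower (9.68%, beside 19% of all genes in either direction). The called gene was Coro1a, with 5.94, 7.13 and 6.60 on collagen I, against 5.35, 5.54, 5.46 and 4.67 on plastic. All collagen values were above all plastic values, a pattern that 8.04% of all genes shared. The collagen average was 6.56 ± 0.59 (SD, n = 3), against 5.26 ± 0.40 for the plastic arrays (SD, n = 4). The difference was 1.30 ± 0.30, or 2.46-fold (limma, adjusted p = 0.0374). With the title letter as a fixed replicate block the difference was 1.29 and missed the threshold (adjusted p = 0.0507), whereas with the letter as a random block it was 1.30 and passed (adjusted p = 0.0254). It did not pass without collagen replicate 2 or 3, without any of the 4 plastic replicates or without either Matrigel replicate (adjusted p from 0.0578 to 0.119). Within letters A, P and Z Coro1a was 0.59, 1.58 and 1.93 higher on collagen I than on plastic.

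Adgre1 and Lgals3 lay lower on collagen I. Adgre1 had 6.32, 6.25 and 6.98 on collagen I, against 8.31, 6.99, 8.86 and 7.73 on plastic. Every collagen value was below every plastic value, the nearest being letter Z on collagen I and letter P on plastic, and the difference was -1.45 ± 0.42, with an adjusted p of 0.0934 that missed the threshold. Lgals3 had 9.72, 9.66 and 9.10 on collagen I, against 10.21, 10.01, 10.40 and 9.84 on plastic. It did not overlap between the surfaces either, at -0.62 ± 0.18 (adjusted p = 0.0988). They were the 2 of 31 members with all collagen arrays below all plastic arrays (6.45%, beside 9.2% of all genes). Both passed with the title letter as a fixed replicate block, at -1.17 for Adgre1 (adjusted p = 0.0454) and -0.51 for Lgals3 (adjusted p = 0.0297). Neither passed with the letter as a random block, at -1.39 and -0.60 (adjusted p = 0.0686 for each), or when plastic was limited to letters A, P and Z (adjusted p = 0.151 and 0.186). Without plastic replicate 2 (letter P) Adgre1 passed, at -1.78 (adjusted p = 0.0317). Within letters A, P and Z Adgre1 was lower on collagen I by -1.99, -0.73 and -0.75, and Lgals3 by -0.49, -0.34 and -0.74.

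The other members went different ways within the letters. Within letter A 29 of 31 genes were lower on collagen I than on plastic, beside 44.5% of all genes. Within letter P 19 were higher and 11 lower, beside 45.2% and 46.9% of all genes. Within letter Z 28 were higher, beside 42.3% of all genes. The mean of the 31 genes differed by -0.64, 0.15 and 0.71 within letters A, P and Z. C1qa differed by -1.60, -0.14 and 1.30, Lyz2 by -0.76, 1.10 and 1.81, and Cd68 by -1.48, -0.63 and 0.58. Over all arrays the median difference of the members between collagen I and plastic was -0.08. Itgam had 5.51, 5.24 and 6.77 on collagen I, and Csf1r 6.83, 6.73 and 7.74, so that letter Z stood apart for both. Their differences from plastic were 0.52 ± 0.42 and -0.40 ± 0.34 (adjusted p = 0.587 and 0.591). The 95% intervals of these differences, 0.97 and 0.76 to either side, leave room for changes in both directions.

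Between Matrigel and collagen I 0 of the 31 genes passed in the limma fit, beside 1.21% of all genes higher and 1.45% lower. At an unadjusted p under 0.05, 17 members were higher on Matrigel and 0 lower (54.8%, beside 16.9% of all genes in either direction). For 22 of 31 members both Matrigel arrays lay above all 3 collagen arrays, beside 13% of all genes. The median difference was 1.16, beside -0.02 for all genes. Cd68 had 9.39 and 10.01 on Matrigel, against 7.51, 7.21 and 8.85 on collagen I, a difference of 1.84 ± 0.58 (adjusted p = 0.151). Fcer1g had 9.34 and 9.58 on Matrigel, against 7.58, 7.12 and 8.35 on collagen I (adjusted p = 0.101), and Itgb2 had 8.08 and 8.40, against 6.47, 6.41 and 7.35 (adjusted p = 0.0808). Adgre1 was 1.76 ± 0.51 higher on Matrigel (adjusted p = 0.121). Coro1a overlapped between the 2 matrices, at 0.19 ± 0.35 (adjusted p = 0.851). Only letter A is shared by these surfaces, and within it 30 of 31 genes were higher on Matrigel, beside 42.7% of all genes, with a member median of 1.32. The 3 comparisons share arrays, so a low collagen array of letter A also enters this one.

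Other phagocyte genes were counted in the same fit. Of all genes 4.52% rose and 5.85% fell on Matrigel against plastic, and 2.95% rose and 3.17% fell on collagen I. These shares also belong beside the list counts of the next paragraphs. Of 30 measured genes of leukocyte signalling and cytoskeleton 4 rose and 0 fell on Matrigel against plastic, of 50 phagocyte surface receptors 4 rose, with Clec5a dim on both surfaces and Ccr1 dim on plastic, and 0 fell, and of 30 oxidase, enzyme and secreted product genes 3 rose and 1 fell. The medians of these lists were 0.49, 0.17 and 0.28. Arhgdib, a cytosolic protein abundant in blood cells, averaged 10.10 on Matrigel and 7.78 on plastic (adjusted p = 0.00148), and Myo1f, an unconventional myosin, 6.31 and 4.41 (adjusted p = 0.0200). Dok3 and Arhgap30 rose by 0.51 and 0.98 (adjusted p = 0.0176 and 0.0358). Among the receptors Cd300a, an inhibitory receptor of myeloid cells, rose by 1.10 (adjusted p = 0.00915). C5ar1, the receptor for the complement fragment C5a, averaged 7.62 on Matrigel and 6.10 on plastic (adjusted p = 0.01255). Pf4, the chemokine platelet factor 4, averaged 10.29 and 8.51 (adjusted p = 0.0170). Mmp9, a gelatinase of phagocytes and other cells, averaged 10.25 on Matrigel and 7.15 on plastic (adjusted p = 0.00825). Il1rn, the interleukin 1 receptor antagonist, was dim on plastic and rose by at least 0.92 (adjusted p = 0.0160). The gene that fell was Tgm2, a transglutaminase that fibroblasts also express, with 5.56 on Matrigel and 7.99 on plastic (adjusted p = 0.0200). On collagen I against plastic, of the 50 receptors 0 rose and 2 fell, beside 3.17% of all genes lower. The 2 were Sirpa, by 0.89, and Tlr6, dim on collagen I, by at least 0.61 (adjusted p = 0.0351 and 0.0129). Arhgdib rose by 1.81 on collagen I (adjusted p = 0.00273). Of the 30 oxidase, enzyme and secreted product genes 2 rose on collagen I, Mmp9 by 2.34 and Il1rn by at least 1.42, and 1 fell, Tgm2 by 2.88 (adjusted p = 0.0211, 0.00209 and 0.00740). Tlr6 senses bacterial lipopeptides and Sirpa binds the signal CD47 on other cells.

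Of 18 macrophage transcription factor genes, several of which other cells share, 4 rose and 1 fell on Matrigel, and 4 rose and 1 fell on collagen I. Bhlhe41 rose by 1.89 on Matrigel and by 2.37 on collagen I, while Klf4, which many other cells express, fell by 2.40 and 1.08. Id2 and Runx1, factors that many cells share, rose by 1.26 and 1.30 on collagen I (adjusted p = 0.000598 and 0.00313). Cebpa, a factor of myeloid cells and adipocytes, rose by 1.06 on Matrigel (adjusted p = 0.00497). Of 20 lipid-loaded macrophage genes 4 rose and 0 fell on Matrigel, namely Plin2, Spp1, Cd36 and Fabp4, which other cells such as adipocytes or epithelia can make too. On collagen I 2 of the 20 rose, Plin2 by 0.95 and Spp1 by 2.44 (adjusted p = 0.00178 and 0.00299). There 1 fell, Lipa, with a difference of -0.60 (adjusted p = 0.0278). Of 9 genes of MHC class II presentation 1 rose on Matrigel, RT1-DMa, by 0.53 (adjusted p = 0.0476), and 0 changed on collagen I, where Cd74, the invariant chain, differed by 1.87 (adjusted p = 0.0858).

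Some islet and acinar genes also rose on Matrigel, and some stellate cell genes fell. Of 11 measured islet genes 7 rose and 0 fell, and the list mean lay at 6.83 to 8.13 on Matrigel, 5.62 to 6.34 on collagen I and 5.30 to 6.29 on plastic. Of 13 acinar genes 3 rose, with a list mean of 4.16 to 5.09 on Matrigel, 3.53 to 3.95 on collagen I and 3.50 to 3.75 on plastic. Of 19 stellate cell and fibroblast genes 5 fell and 0 rose on Matrigel, with list means of 8.40 to 8.52, 9.04 to 9.28 and 9.08 to 9.22 in the same order. Of 10 duct and epithelial genes 0 passed in either direction in the limma fit. At an unadjusted p under 0.05, 3 of these were higher and 1 lower, beside 24.1% of all genes in either direction. Of 12 endothelial genes 1 rose and 1 fell. The part of these lists in the leukocyte result was not tested. The letters ranked differently in these lists: the Matrigel array of letter A was the higher one for islet and acinar genes, whereas that of letter S was the higher one for the leukocyte mean. On plastic the islet list was highest for letter A, at 6.29, and stood at 5.71 for letter S.

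The genes outside the list whose deviations from the surface means were most like those of the 31 genes were Il7r, Pf4, Ccl6, Il1a, Ch25h, Itgal, Fermt3, Mpeg1, Clec4a1 and Ptprj, with r from 0.964 to 0.988 over the 9 arrays. They were chosen as the top 10 of 8672 genes above the dim level, so these values are a description. Most are textbook genes of leukocytes, such as Itgal, the alpha chain of the lymphocyte integrin LFA-1, and Mpeg1, the pore-forming protein perforin-2 of macrophages. Il1a, which encodes interleukin 1 alpha, and Ch25h, the enzyme that makes 25-hydroxycholesterol, followed the same deviations but had another order of surfaces. Il1a averaged 6.76 on Matrigel, 8.60 on collagen I and 6.74 on plastic, and its rise on collagen I passed (adjusted p = 0.0104). Ch25h averaged 7.81, 8.40 and 7.35 in the same order and rose on collagen I as well (adjusted p = 0.0372). Fermt3, the kindlin that activates integrins in blood cells, averaged 7.16, 5.75 and 6.02 and passed on neither matrix (adjusted p = 0.0772 and 0.709 against plastic).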

How the data were processed

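The data are 9 arrays of the Affymetrix rat gene type. The deposited log2 values were made by the authors with RMA, as the submitters' processing notes state. The values were used as deposited, and neither the program nor the genome build was given in the sources used here. Of 29215 rows, 15310 carried 1 gene symbol in the array's probe table, 323 several and 13582 none; the row with the highest mean per symbol gave 14506 genes. For 8192 genes, 8 of them members, at least 2 arrays hold an identical value.

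A model with 1 mean for each surface was fitted in limma 3.58.1 (R 4.3.3) to the 9 arrays, leaving 6 residual degrees of freedom, and the moderated p-values were adjusted by Benjamini-Hochberg over all genes in each comparison. A call is a two-sided adjusted p under 0.05. A difference from a mean under the dim level of 4.25 is printed as a lower bound, taken from that level. Probe sets may also detect close paralogs. The fit was tested on simulated data. The number of arrays limits the precision. The members and lists were chosen with earlier results of these data known. All 31 measured members are named. Genes of the further lists were taken from the up to 4 with the smallest p against plastic on each matrix; only some of those are printed, chosen after their values were seen. The 10 genes most like the members are named as well. Alternatives were other scalings, filters, row choices, variance models, letters as a block, plastic arrays of matching letters, a 2-fold minimum and leaving out each array. For collagen I and plastic, deviations of same-letter arrays correlated across genes at r = 0.196, 0.234 and 0.269 for A, P and Z. Among pairs of different letters the highest value was 0.243, for collagen A with plastic S, and the others ranged from -0.243 to 0.009. For Matrigel and plastic the values were -0.131 for A and 0.406 for S. With 2 Matrigel arrays the deviations mirror each other, so these values cannot judge each letter alone. The main fit held no letter term, and letters entered only the within-letter differences and the alternatives.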

Additional observations from a re-analysis of the deposited data

Results flagged for a closer look

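On plastic, C1qb had 3 arrays between 5.78 and 5.79 and the array of letter P at 5.50, which makes the gap to the nearest array 0.983 of the range, above the 95% limit of Dixon's test for 4 arrays. For Ccr2 and Marco, both dim, the same ratio was 1.00, because 3 of the 4 plastic arrays hold the same deposited value and the array of letter S a higher one. Such a test flags about 1 in 20 groups by chance, and 31 genes were examined.

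The difference of the mean of the 31 genes between collagen I and plastic ran in opposite directions by title letter, at -0.64 for letter A, 0.15 for letter P and 0.71 for letter Z. Each value compares 1 array with 1 array, and the difference between letters was not tested.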

How the results depend on the processing

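All 5 genes called higher on Matrigel and Coro1a on collagen I stayed higher under all 21 alternatives each. The calls were less stable, and members outside the 5, among them Lyz2, Ptprc and Tyrobp, passed on Matrigel under some alternatives. Members called between Matrigel and plastic, 5 in all, numbered 8 with only genes above the 40th percentile, 2 with the title letter as a fixed replicate block and 0 with only the plastic arrays of matching letters. Leaving out each array gave 0 to 10: 0 without Matrigel replicate 1 or 2, 1 without plastic replicate 1, 2 without plastic replicate 2 or 4, 8 without collagen replicate 3 and 10 without plastic replicate 3. Under the fixed block Itgam, Laptm5 and Lcp1 did not pass (adjusted p = 0.0520, 0.0831 and 0.0750), whereas with the letter as a random block 6 members passed. Members called between collagen I and plastic, 1 in all, numbered 0 with every row tested, with only the 2 surfaces in the fit and with matching letters, 2 with the fixed replicate block, both lower, and 0 to 1 leaving out each array. The 1 call was Coro1a, higher, without collagen replicate 1, and Adgre1, lower, without plastic replicate 2. Between Matrigel and collagen I the count was 0 throughout. Over all genes, 1504, 888 and 387 differed between Matrigel and plastic, collagen I and plastic, and Matrigel and collagen I; with a 2-fold minimum these were 431, 316 and 98. Matching letters left 628 for Matrigel and plastic. For Matrigel and collagen I array weights gave 257, the fixed replicate block 66 and only the 2 surfaces 0. Leaving out each array gave 759 to 1461, 552 to 870 and 68 to 352 in the same order. No called difference among the 31 genes changed sign, and the sign was not followed for other genes. The mean difference of the 31 genes ranged, leaving out each array, from 0.70 to 1.04 for Matrigel and plastic, from -0.36 to 0.07 for collagen I and plastic and from 0.81 to 1.22 for Matrigel and collagen I. Matching letters could not be applied to Matrigel and collagen I. The causes of these changes were not tested. Where an array was left out, the number of arrays and the choice of arrays changed together.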
